A study of Homo sapiens with 6 samples.

Results

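Scrambled siRNA was compared with no siRNA in HEK293 cells, a line of human embryonic kidney origin, on the poly(A) sites of their RNA. The comparison used 2 of the 6 libraries of the series, chosen by their labels: the library of cells given a scrambled siRNA and the library of cells given none. Fragments were made by alkaline hydrolysis for both, and each group held 1 library. The labels name the siRNA scrambled-A and describe seeding at 20% density, lipid-mediated transfection with RNAiMAX the next day, and harvest 3 days later. For the cells labelled with no siRNA, seeding density, harvest time and any exposure to the transfection reagent are not stated in the labels. Both cultures belonged to a line grown in DMEM with 10% FCS and antibiotics, and neither carried an siRNA against a subunit of cleavage factor Im. The other 4 libraries, which serve only to place the values, came from cells given siRNA against CF Im25 or CF Im59 (alkaline hydrolysis) and from cells given scrambled-A siRNA or siRNA against CF Im68 (RNase I). With 1 library a side, an effect of the siRNA, of the transfection, of the culture and of the library preparation cannot be told apart, and no difference below could be set against a spread between replicates.

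Most messenger RNAs end where the nascent transcript is cut and a poly(A) tail is added, and many genes have several such sites, so that 1 gene can make transcripts with short or long 3' ends. The site nearer to the promoter is called proximal and the other distal. A scrambled siRNA is a double-stranded RNA with no intended target, used to separate the effects of silencing a gene from those of delivering an siRNA. The cells receive the duplex and the lipid reagent that carries it, but no designed knockdown. Mitochondrial transcripts are made from both strands of a circular genome, and most of them are cut out of long precursors and given short tails. In the reference orientation most mitochondrial genes lie on the plus strand, and much of the RNA of the minus strand is normally degraded fast.

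A-seq selects RNA with poly(A) tails, breaks it and starts reverse transcription where the transcript meets its tail. The primer keeps 6 nucleotides of the tail next to the adapter, and the sequence that follows the transcript in a read is the same in all 6 libraries. It is shown because it defines what was counted, with the 6 bases of the tail in capitals and the adapter in lower case.
3' adapter: AAAAAAtggaattctcgggtgccaagg
The last base before the capitals gives the cleavage position to 1 nucleotide. Whether reads primed at A-rich stretches inside transcripts were removed is not stated in the labels.

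The scrambled siRNA library held 9690883 reads at 686558 positions and the no siRNA library 18183644 reads at 892690 positions. Ends within 25 nt of a peak were joined into a poly(A) site, which gave 49965 sites, 49695 of them nuclear, holding 91.5% of the reads with scrambled siRNA and 92.5% with no siRNA. Same-strand nuclear sites with gaps of up to 5 kb were joined into 28114 units. Totals per unit are given as CPM, which here means reads per 1000000 reads in all nuclear units of that library (8679685 with scrambled siRNA, 16541930 with no siRNA). A unit can hold the ends of neighbouring transcripts and is not a gene. Loci are named by their hg19 coordinates, as an annotation of that build was not used here. For the same reason the HEK293 label could not be set against the defining markers of the line.

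Most units had totals within 2-fold of each other, and a minority differed by 2-fold or more, in each direction. Of 16791 units that reached 50 reads in at least 1 library, 722 (4.30%) were at least 2-fold higher with scrambled siRNA and 721 (4.29%) at least 2-fold lower, where the exact 95% interval of the ratio also left out 1. The log2 ratio of scrambled over no siRNA had a median of 0.04 over the tested units, with quartiles of -0.31 and 0.36, and 90% of units lay between -0.94 and 0.94. The interval of the ratio, which covers counting error only, left out 1 at 8826 tested units (52.6%). Units called higher had a median log2 ratio of 1.30 and units called lower one of -1.26. The balance of the directions rests on scaling and depth. TMM scaling moved every log2 ratio by -0.11 and gave 552 higher and 955 lower units, while thinning the no siRNA library to the depth of the scrambled siRNA library gave 769 higher and 422 lower.

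The transcripts with the most reads were nearly level. The deepest unit, on the plus strand of chromosome 12 from 6646973 to 6647537, had 29763 CPM with scrambled siRNA and 29895 CPM with no siRNA, a ratio of 0.996. The next, on the plus strand of chromosome 16 from 89629474 to 89634258, had 21121 CPM with scrambled siRNA and 20565 CPM with no siRNA, a ratio of 1.03. The fourth, on the plus strand of chromosome 17 from 72205982 to 72206794, had 9315 CPM with scrambled siRNA and 9709 CPM with no siRNA, a ratio of 0.959. The third of these deepest units was the least level. On the plus strand of chromosome 10 from 79800429 to 79800455, 15831 CPM were counted with scrambled siRNA and 19690 CPM with no siRNA, a ratio of 0.804 (95% interval 0.799 to 0.809). Among the 364 units with over 10000 reads in the 2 libraries together, 1 was called higher and 5 lower, although the interval left out 1 at 91.8% of them.

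**Figure D1:**
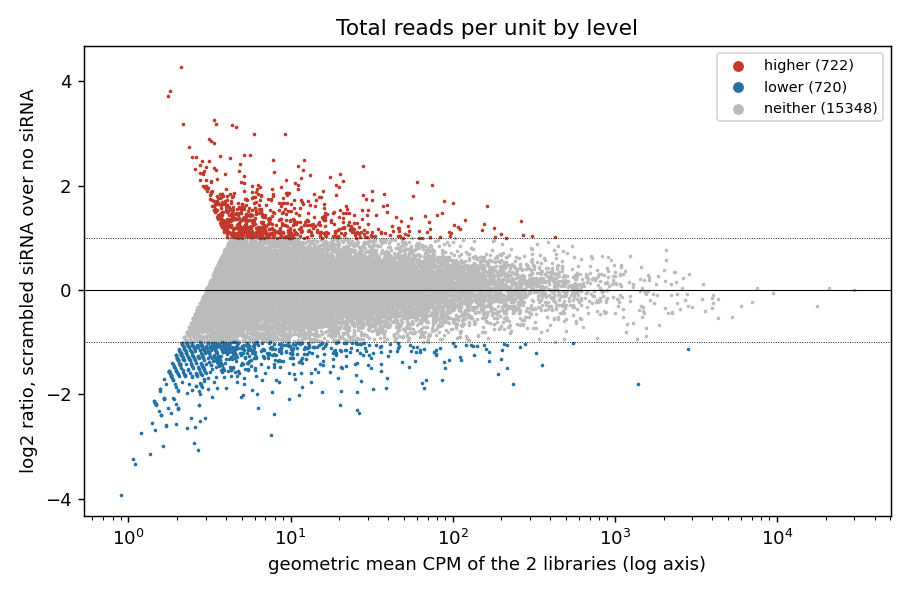
Each point is 1 of the tested units: the x axis gives its level in CPM (log scale) and the y axis the log2 ratio of scrambled siRNA over no siRNA. Coloured points are the 722 units called higher and the units called lower, of which 720 are drawn because 1 had no read with scrambled siRNA; the calls thin out towards high levels.

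Some strongly expressed loci were nevertheless called, and those given here were picked, after their values were seen, from the 5 called units of highest level in each direction. The deepest lower unit spans 8 sites on the plus strand of chromosome X from 23799992 to 23804326. It had 1912 CPM with scrambled siRNA and 4198 CPM with no siRNA, while the CF Im25 and CF Im59 libraries had 6852 and 5381 CPM. It was thus 2.20-fold lower with scrambled siRNA (2.16 to 2.23), which held the lowest value of the 4 alkaline libraries. The RNase I libraries of scrambled and CF Im68 siRNA were lower still, with 571.7 and 609.2 CPM. A site on the minus strand of chromosome X at 106956460 had 748.4 CPM with scrambled siRNA and 2620 CPM with no siRNA, a 3.50-fold lower level (3.41 to 3.59). The CF Im25 and CF Im59 libraries had 2237 and 1715 CPM there, again above scrambled siRNA. The RNase I libraries of scrambled and CF Im68 siRNA were again below it, with 593.2 and 302.2 CPM. The 5 higher units of highest level had ratios of 2.01 to 2.51. The first, on the plus strand of chromosome X from 153671778 to 153671813, had 606.2 CPM with scrambled siRNA and 298.5 CPM with no siRNA, a ratio of 2.03 (1.95 to 2.11). The CF Im25 and CF Im59 libraries lay between them there, with 428.0 and 462.4 CPM. The third, of 6 sites on the plus strand of chromosome 6 from 30692248 to 30693204, had 394.9 CPM with scrambled siRNA and 189.4 CPM with no siRNA (2.09-fold, 1.99 to 2.19). It was above both in the RNase I libraries, with 851.5 CPM for scrambled and 932.6 CPM for CF Im68 siRNA. The rest of these 5 higher units were below no siRNA in both RNase I libraries. The fourth, on the plus strand of chromosome 1 from 46601540 to 46601702, had 416.0 CPM with scrambled siRNA, 166.1 CPM with no siRNA, and 83.2 and 72.7 CPM with CF Im25 and CF Im59 siRNA, a ratio of 2.51 for scrambled over no siRNA (2.38 to 2.63).

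The largest rises were mostly at low-level loci with a single site. The 12 largest, among 331 higher units that reached 100 reads in a library, ran from 4.80-fold to 8.97-fold, and 10 of the 12 consisted of 1 site. Units of 1 site made up 7622 of the 16791 tested units and 461 of the 722 higher ones. At the largest, on the plus strand of chromosome 15 at 75934005, 113 reads were counted with scrambled siRNA and 24 with no siRNA. That was 13.0 CPM with scrambled siRNA and 1.45 CPM with no siRNA (8.97-fold, 5.74 to 14.6), and the other 4 libraries had 1.55, 1.13, 0.427 and 0.730 CPM for CF Im25, CF Im59, scrambled siRNA with RNase I and CF Im68. The scrambled siRNA library made by alkaline hydrolysis stood alone there, also against the library of the same siRNA made with RNase I. The site on the plus strand of chromosome 17 at 8031510 had 25.9 CPM with scrambled siRNA and 3.26 CPM with no siRNA (7.94-fold, 5.88 to 10.9), and 3.72, 2.08, 5.55 and 1.004 CPM in the other 4 libraries in the same order. Another, downstream at 8127977 on the same strand, had 16.8 CPM with scrambled siRNA and 2.12 CPM with no siRNA (7.95-fold, 5.47 to 11.9). Both sites were highest with scrambled siRNA by alkaline hydrolysis. On the plus strand of chromosome 16 at 15682116, 63.8 CPM were counted with scrambled siRNA and 12.2 CPM with no siRNA (5.23-fold, 4.44 to 6.17). The other 4 libraries had 1.76, 1.65, 2.13 and 0.730 CPM there, so that no siRNA was itself above them. The remaining rises of the 12 were on chromosomes 17 (62632721, 8.72-fold, and 35437009, 5.63-fold), 7 (26213155, 6.04-fold), 6 (26173272, 6.02-fold), 10 (92671856, 5.65-fold), 5 (176917247, 5.22-fold), 12 (53458101, 4.95-fold) and 9 (8012806, 4.80-fold). At all 12 the scrambled siRNA library of the comparison had the highest value of the 6 libraries.

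The largest falls held a different mix, with some loci low in 1 library and some high in 1 library. The 12 largest, among 370 lower units that reached 100 reads in a library, ran from 4.25-fold to 8.40-fold lower, and 8 of them consisted of 1 site. Of all 721 lower units, 507 had 1 site, so the 12 were not set apart by this. A unit of 4 sites on the plus strand of chromosome 12 from 56863406 to 56864766 had 101 reads with scrambled siRNA and 991 with no siRNA. Its level was 11.6 CPM with scrambled siRNA and 59.9 CPM with no siRNA (5.15-fold lower, 4.19 to 6.38), and 63.8, 61.1, 58.9 and 66.3 CPM with CF Im25, CF Im59, scrambled siRNA with RNase I and CF Im68. The 5 other libraries were thus close to each other, and the same siRNA gave a low level in only 1 of its 2 libraries. At the largest fall, on the plus strand of chromosome 12 at 69748014, scrambled siRNA had 0.922 CPM from 8 reads and no siRNA 7.74 CPM from 128 reads (8.40-fold lower, 4.13 to 19.9). The other 4 libraries had 0.207, 0.347, 1.07 and 0.365 CPM, so that no siRNA was the high library there. The same order was seen on the plus strand of chromosome 7 at 20261321, with 2.88 CPM with scrambled siRNA, 19.8 CPM with no siRNA (6.86-fold lower, 4.57 to 10.8) and at most 0.517 CPM in the other 4. On the plus strand of chromosome 2, a unit of 7 sites from 101634680 to 101640491 had 11.5 CPM with scrambled siRNA and 56.6 CPM with no siRNA (4.92-fold lower), with 19.3, 40.8, 43.5 and 23.2 CPM in the other 4. The remaining falls were on chromosomes 14 (69196816, 7.61-fold), 2 (18114225, 6.18-fold, 105424035, 5.72-fold, and 118282870, 5.19-fold), 19 (56887218, 5.49-fold, and 2511217, 4.60-fold), 1 (209849733, 4.81-fold) and 22 (37576206, 4.25-fold). Scrambled siRNA had the lowest value of the 4 alkaline libraries at 10 of the 12, and of all 6 libraries at 6.

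**Figure D2:**
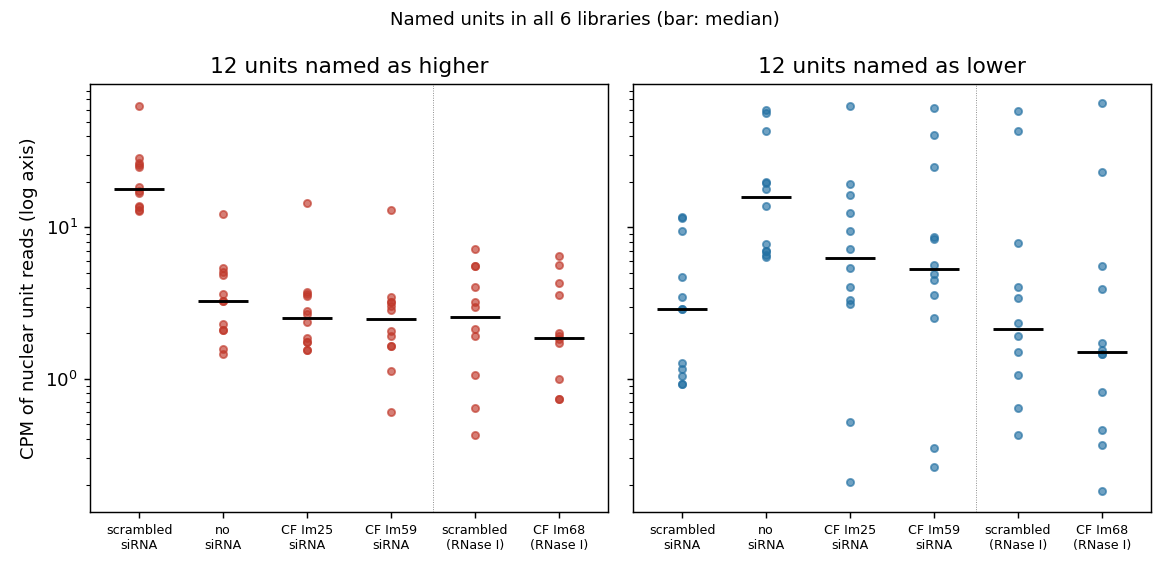
Levels in CPM (log scale) of the 12 units with the largest rises and the 12 with the largest falls, by library; each point is 1 unit, the bar is the median of the 12, and values of 0 are not drawn. For the rises (left) the scrambled siRNA column stands above the other 5, and for the falls (right) it stands below no siRNA, with the other libraries spread widely.

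Over all called units the scrambled siRNA library was more often the outermost of the alkaline libraries than the no siRNA library. At 668 of the 722 higher units (92.5%) the scrambled siRNA library was above the 3 other alkaline libraries, whereas the no siRNA library was below the 3 others at 292 (40.4%). At 579 of the 721 lower units (80.3%) scrambled siRNA was below the 3 other alkaline libraries, and no siRNA was above the 3 others at 409 (56.7%). These shares describe where the libraries lie, since the units were chosen on a pair of them. Median levels of the higher units were 10.6 CPM with scrambled siRNA, 4.23 CPM with no siRNA, 4.86 CPM after CF Im25 siRNA and 4.42 CPM after CF Im59 siRNA. For the lower units they were 2.53, 6.23, 6.00 and 5.46 CPM in the same order. At high depth scrambled siRNA also had the outermost median of the alkaline libraries. The 46 higher units with at least 500 reads in both libraries had medians of 125.1, 48.7, 54.3 and 46.9 CPM, and the 28 lower ones 110.2, 284.2, 250.9 and 262.9 CPM. The CF Im25 and CF Im59 libraries lay nearer to no siRNA than to scrambled siRNA, on a log scale, at 74.9% and 84.3% of the higher units. Of 720 lower units with reads in both libraries they did so at 64.9% and 66.9%. The RNase I libraries of scrambled and CF Im68 siRNA were on the no siRNA side at 74.4% and 75.8% of the higher units, but at only 32.8% and 31.0% of the lower ones. Their median levels at the lower units, 2.77 and 2.65 CPM, lay beside that of scrambled siRNA by alkaline hydrolysis. At the higher units their medians, 3.63 and 2.74 CPM, were below those of all alkaline libraries. Over all tested units the RNase I medians were 11.7 CPM for scrambled and 11.4 CPM for CF Im68 siRNA, beside 12.8 CPM with no siRNA. The RNase I libraries thus had low medians in both sets, and were farther below no siRNA at the lower units than over all units. Fragmentation differs as well, so their side at the lower units cannot be assigned to the siRNA, and its cause was not tested.

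Rises were most frequent at loci whose reads fell almost wholly on 1 nucleotide. How far a unit's main site was concentrated on its top nucleotide was measured in the 4 libraries outside the comparison, for 16733 of the 16791 tested units. In the 3052 units with over 90% of these reads at 1 nucleotide, 293 were called higher (9.60%, exact 95% interval 8.58 to 10.7) and 89 lower (2.92%, 2.35 to 3.58). In the 4027 units with 70 to 90%, 4.35% were higher and 4.59% lower, in the 4404 with 50 to 70%, 2.68% and 4.31%, in the 4291 with 30 to 50%, 2.40% and 4.80%, and in the 959 with up to 30%, 1.88% and 4.48%. The share of higher units therefore grew with concentration, and that of lower units was smallest in the most concentrated class. The median log2 ratio ran from -0.05 in the least to 0.19 in the most concentrated class. In units with 1 site, 11.7% of the most concentrated class were higher and 4.29% lower. In units with several sites it was 6.61% and 0.955%, and the share of higher units in the 4 less concentrated classes lay between 1.86% and 2.84% with no steady order. These intervals treat units as independent trials. Under TMM scaling, which lowers every ratio, the most concentrated class still had 7.73% higher and 4.03% lower units, and with the no siRNA library thinned 13.3% and 2.19%. With at least 200 reads it had 5.24% and 1.75%.

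Level went with the frequency of calls in both directions. Where the other 4 libraries had a mean of up to 5 CPM, 9.31% of 4189 units were higher and 9.0% lower, and where they had over 100 CPM, 0.580% of 1725 were higher and 1.97% lower. A unit enters the test by reaching 50 reads in 1 of the libraries compared, so that a unit low in the other 4 can enter only through the library in which it is high, which by construction raises the share of calls at low levels. Concentration on 1 nucleotide differed within levels as well. Up to 5 CPM, 13.3% of the most concentrated units were higher and 4.08% lower, against 6.78% and 11.5% of the less concentrated. From 5 to 20 CPM the shares were 8.17% and 2.31% for the most concentrated units, against 3.01% and 4.13% for the rest, and from 20 to 100 CPM 3.20% and 0.685%, against 1.75% and 1.92%. Over 100 CPM the class held 127 units with 1 higher and 3 lower, too few to show a difference. Units of 1 site were called more than units of 6 or more sites, with 6.05% higher and 6.65% lower against 1.40% and 1.18%.

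**Figure D3:**
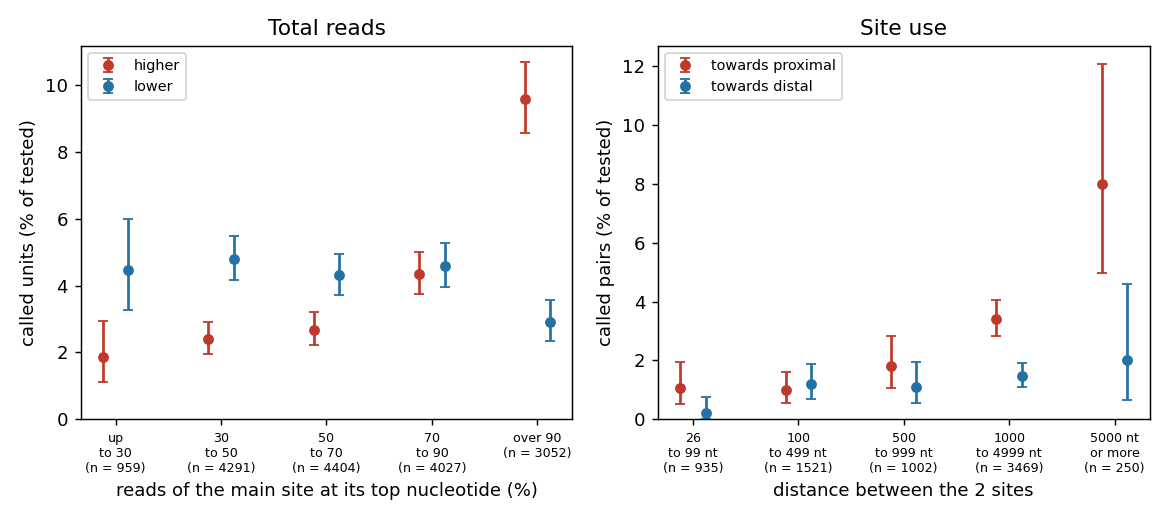
Percentage of tested units called higher or lower with scrambled siRNA by the concentration of the main site on 1 nucleotide (left), and percentage of tested pairs called towards proximal or distal by the distance between the 2 sites (right), with exact 95% binomial intervals that treat loci as independent. Higher units reach 9.60% where over 90% of the reads lie at 1 nucleotide, and proximal calls reach 8.0% at 5000 nt or more.

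A few stretches of the genome held several higher units. In 2408 windows of 1 Mb, 3 held 5 or more higher units and none held 5 or more lower units, and with 4 or more the numbers were 13 and 4. Of the first 3, 2 adjoin on chromosome 6. From 26 to 29 Mb of that chromosome, 17 of 62 tested units were higher (27.4%, against 4.30% of all) and 3 lower (4.84%, against 4.29%), with 9 of the higher units on the plus and 8 on the minus strand. These bounds were chosen after the values were seen, so the counts are a description. The unit on the plus strand from 28572393 to 28573624 had 37.3 CPM with scrambled siRNA and 8.28 CPM with no siRNA (4.51-fold, 3.68 to 5.54), and 7.65 and 6.59 CPM with CF Im25 and CF Im59 siRNA. On the minus strand the unit from 27660974 to 27661295 had 52.9 CPM with scrambled siRNA and 14.9 CPM with no siRNA (3.56-fold, 3.04 to 4.17), and 14.7 and 10.3 CPM in the same 2 libraries. The site on the minus strand at 28903880 had 109.1 CPM with scrambled siRNA and 48.2 CPM with no siRNA (2.26-fold, 2.06 to 2.49). The 17 units together had medians of 13.8 CPM with scrambled siRNA, 5.02 CPM with no siRNA, 6.82 CPM after CF Im25 siRNA and 6.07 CPM after CF Im59 siRNA, so that scrambled siRNA stood above the other alkaline libraries. The third window, on chromosome 17 from 8 to 9 Mb, held 19 tested units, of which 5 were higher and none lower. Between 8 and 8.2 Mb, 5 of 14 tested units were higher (35.7%, against 4.30% of all) and none lower (against 4.29%). These narrower bounds were also chosen after the values were seen. All 5 lay on the plus strand, at 8031510, 8116636, 8122251, 8127977 and 8150042, with ratios of 2.44 to 7.95 and medians of 11.5 CPM with scrambled siRNA, 2.90 CPM with no siRNA, 3.62 CPM after CF Im25 siRNA and 3.30 CPM after CF Im59 siRNA.

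Use of alternative sites within a unit also differed between the libraries, more often towards the proximal site with scrambled siRNA. In 8999 units the 2 most used sites each held at least 5% of the reads, and the proximal share says what percentage of their summed reads lay upstream. Of 7177 pairs with at least 50 reads in both libraries, 181 (2.52%) had a proximal share at least 20 points higher with scrambled siRNA and 87 (1.21%) one at least 20 points lower, with a Newcombe 95% interval without 0. The change had a median of 1.15 points, with quartiles of -2.37 and 5.79 points, and was positive at 4346 pairs (60.6%). The interval lay above 0 at 23.5% of pairs and below 0 at 11.1%. The median share over the tested pairs was 39.5% with scrambled siRNA and 36.5% with no siRNA, beside 50.6% in the library for CF Im25 and 36.4% in that for CF Im59. Thinning the no siRNA library left 181 proximal calls and 68 distal ones.

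At most shifted pairs the 2 sites had changes of opposite sign, in part because the pairs were chosen for a change of share. This was so at 154 of 181 proximal and 72 of 87 distal calls, beside 2816 of all 7177 tested pairs. At the 181 pairs called towards proximal, the proximal site had a median log2 ratio of 0.89 and the distal site one of -0.76, while the unit's total had 0.06. At the 87 pairs called towards distal, the proximal site had -0.51, the distal site 1.15 and the unit 0.31. Among the units of the proximal calls 12 (6.63%) were also higher in total and 5 (2.76%) lower, and among those of the distal calls 1 (1.15%) and 2 (2.30%), beside 2.88% and 1.41% of all tested pairs.

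The 10 largest changes in each direction were taken from 77 proximal and 31 distal calls with at least 100 reads in each library. On the minus strand of chromosome 17, the proximal site at 73200661 and the distal one at 73198929 lie 1732 nt apart. The proximal share was 77.2% of 290 reads with scrambled siRNA and 32.7% of 165 reads with no siRNA, a rise of 44.5 points (35.4 to 52.6). It was 47.7% of 44 reads in the CF Im25 library and 31.1% of 61 reads in the CF Im59 library. By RNase I it was 81.0% of 21 reads for scrambled and 73.0% of 37 reads for CF Im68 siRNA. The unit's total had a log2 ratio of 1.56, and the library of the same siRNA by RNase I was on the scrambled side, though with only 21 reads. On the plus strand of chromosome 1, at 244870577 and 244872315, the share was 64.0% of 336 reads with scrambled siRNA and 24.4% of 626 reads with no siRNA (39.5 points higher, 33.2 to 45.4). The CF Im25 library was near the scrambled one with 59.8%, the CF Im59 library had 34.8%, and the same scrambled siRNA by RNase I had 7.51%. The libraries of 1 siRNA made by the 2 fragmentation methods thus differed at this locus by more than the libraries compared. A pair only 28 nt apart on the plus strand of chromosome 14, at 95646240 and 95646268, had 71.8% with scrambled siRNA and 35.6% with no siRNA (36.2 points higher, 26.1 to 44.9). It had between 71.4% and 98.0% in the other 4 libraries, on 49 to 119 reads each. There the no siRNA library stood apart. Of the 10 proximal examples, 9 had sites at least 1000 nt apart. Such distances are common, as the median was 1079 nt over all 7177 tested pairs and 1976 nt over the 181 proximal calls.

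At all 10 distal examples, which were chosen for a fall against no siRNA, the scrambled siRNA library of the comparison had the lowest proximal share of all libraries. On the minus strand of chromosome 14, at 105281793 and 105281356, the proximal share was 32.8% of 631 reads with scrambled siRNA and 68.9% of 950 reads with no siRNA, a change of -36.1 points (-40.7 to -31.3). It was 77.0% and 61.7% with CF Im25 and CF Im59 siRNA and 75.7% and 78.4% in the RNase I libraries of scrambled and CF Im68 siRNA. The 5 other libraries therefore used mainly the proximal site and the scrambled siRNA library mainly the distal site. The minus strand of chromosome 17, at 8043790 and 8040093, showed the same, with 19.2% with scrambled siRNA and 56.6% with no siRNA (-37.4 points, -46.2 to -27.4) and 61.9% to 98.6% in the other 4 libraries. On the plus strand of chromosome 5, at 170833730 and 170837904, the share was 49.3% of 337 reads with scrambled siRNA and 78.5% of 2106 reads with no siRNA (-29.3 points, -34.8 to -23.7), with 75.8% and 77.6% for CF Im25 and CF Im59. The total of this unit was lower too, with a log2 ratio of -1.34. The smallest of the 10 changes was -27.7 points, and 7 of the 10 had sites at least 1000 nt apart. The median distance was 1710 nt over the 87 distal calls and 1079 nt over all tested pairs.

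**Figure D4:**
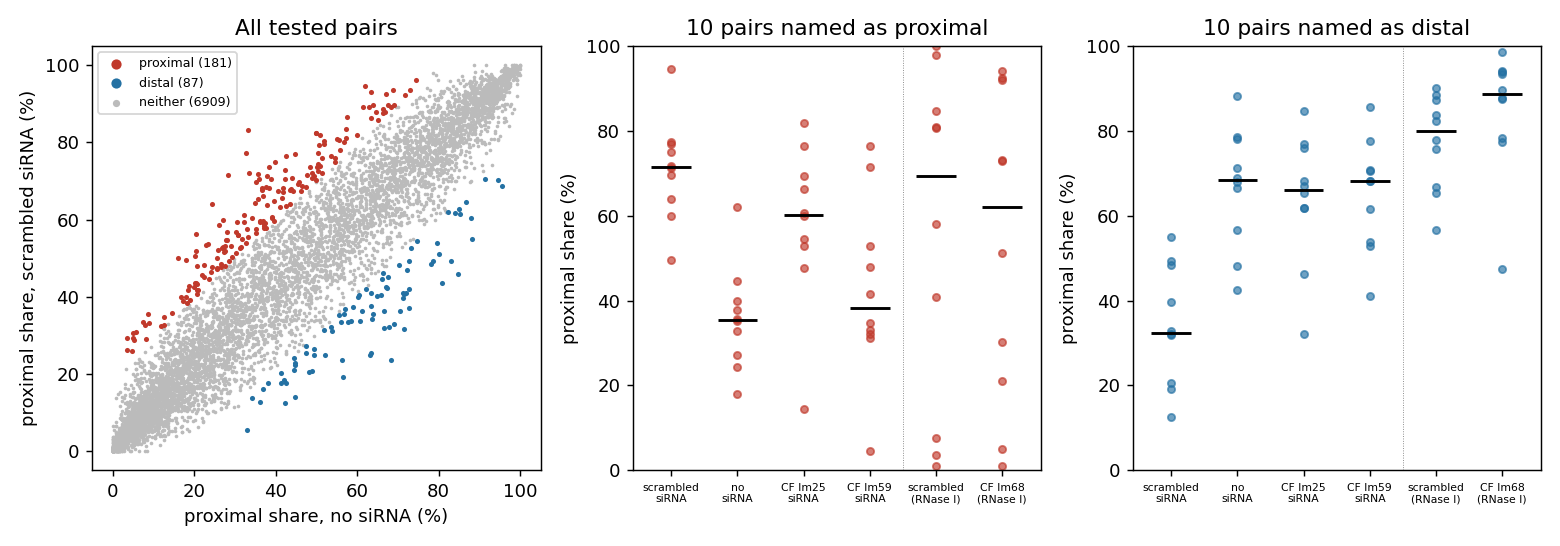
Proximal share in percent of all 7177 tested pairs with scrambled siRNA (y axis) and no siRNA (x axis), and of the 10 largest changes in each direction by library, with 1 point for each pair and a bar at the median. The proximal examples rise by 31.5 to 44.5 points with scrambled siRNA over no siRNA and the distal ones change by -37.4 to -27.7 points. The other 4 libraries spread widely at the proximal examples and all lie above scrambled siRNA at the distal ones.

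The other libraries divided the shifted pairs in another way than they did the totals. At the 181 proximal calls the CF Im59 library was nearer to no siRNA at 80.7% of pairs, but the CF Im25 library at only 36.5%. Median shares there were 61.2% with scrambled siRNA, 36.1% with no siRNA, 59.6% in the library for CF Im25 and 36.7% in that for CF Im59. At the 87 distal calls both were mostly nearer to no siRNA (78.2% for CF Im25 and 69.0% for CF Im59), with medians of 36.2% with scrambled siRNA, 63.6% with no siRNA, 66.5% in the library for CF Im25 and 57.0% in that for CF Im59. The CF Im25 library had a higher proximal share over all tested pairs, as given above, and its part in these counts was not tested.

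Proximal calls were most frequent where the sites lay farthest apart. They made up 1.07% of 935 pairs 26 to 99 nt apart, 0.986% of 1521 pairs at 100 to 499 nt, 1.80% of 1002 pairs at 500 to 999 nt, 3.40% of 3469 pairs at 1000 to 4999 nt, and 8.0% of 250 pairs at 5000 nt or more (20 pairs, exact 95% interval 4.95 to 12.1). Distal calls made up 0.214%, 1.18%, 1.10%, 1.47% and 2.00% of the same classes. The median change was 0.746, 0.546, 1.13, 1.60 and 2.53 points from the nearest to the farthest class. A unit joins sites by their gaps, so that distant sites can belong to separate transcripts. By the share in the CF Im59 library, which took no part in the comparison, proximal calls were most frequent where the proximal site held 20 to 50% (4.90% of 1998 pairs) and made up 0.271% of the 1107 pairs where it held over 80%, since a rise of 20 points has little room there. Calls became fewer with depth: with 50 to 99 reads in the smaller library 5.53% of pairs were called proximal and 2.98% distal, and with 1000 or more reads none of 669 was called in either direction. Counting error is larger at few reads and depth follows level, and their parts in this were not tested. The changes of those 669 deepest pairs reached 18.8 points upwards and -17.6 points downwards.

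Mitochondrial RNA differed more on its minus than on its plus strand, with nearly all calls of the minus strand in 1 direction. The minus strand held 1.33% of all reads with scrambled siRNA (Wilson 95% interval 1.32 to 1.33) and 0.930% with no siRNA (0.926 to 0.934), and the plus strand 0.581% and 0.616%. The CF Im25 and CF Im59 libraries, also from transfected cells and alkaline hydrolysis, had 0.542% and 0.810% on the minus strand, below no siRNA. By RNase I it was 3.93% for scrambled and 8.12% for CF Im68 siRNA. Of 111 tested sites on the minus strand, 77 (69.4%) were at least 2-fold higher with scrambled siRNA and 1 (0.901%) at least 2-fold lower, whereas of 62 on the plus strand 12 (19.4%) were higher and 7 (11.3%) lower. The median ratio was 2.62 on the minus strand, with 106 of 111 sites above 1, and 0.957 on the plus strand. Mitochondrial levels are in CPM of all reads of the library, and scaling the ratios to nuclear reads gave 78 higher sites. Sites of 1 strand lie on the same long precursors and are not independent.

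Rises on the minus strand differed widely between positions. At position 230 the minus strand had 8349 CPM with scrambled siRNA and 6377 with no siRNA, a ratio of 1.31 (1.30 to 1.32). The rest of the strand had 4913 CPM with scrambled siRNA and 2923 with no siRNA, a ratio of 1.68 (1.66 to 1.70), spread over 3049 and 2716 positions although the scrambled siRNA library held fewer reads. Some abundant sites of that strand were nearly level. Position 198 had 672.1 CPM with scrambled siRNA and 695.2 with no siRNA (ratio 0.967), position 90 had 386.8 CPM with scrambled siRNA and 411.9 with no siRNA (0.939), and position 122 had 159.5 CPM with scrambled siRNA and 156.7 with no siRNA (1.02). Other sites were several times higher. At position 12604, 115.7 CPM were counted with scrambled siRNA and 26.3 with no siRNA (4.40-fold, 3.95 to 4.91). The CF Im25 and CF Im59 libraries had 24.7 and 36.4 CPM there, and the RNase I libraries 90.6 (scrambled) and 538.5 (CF Im68). Position 7317 had 40.2 CPM with scrambled siRNA and 7.81 with no siRNA (5.15-fold, 4.24 to 6.29), and position 9838 had 24.6 with scrambled siRNA and 3.68 with no siRNA (6.67-fold, 5.06 to 8.88). At both, the CF Im25 and CF Im59 libraries had 3.19 to 9.81 CPM, below scrambled siRNA. The main site of the plus strand, at 12139, went the other way, with 2739 CPM with scrambled siRNA and 3410 with no siRNA (ratio 0.803, 0.792 to 0.815). The rest of the plus strand was slightly higher with scrambled siRNA, with 3068 CPM against 2750 with no siRNA (ratio 1.12, 1.10 to 1.13). At position 230 the CF Im25 and CF Im59 libraries had 3341 and 4753 CPM, below no siRNA. The RNase I libraries lay farther off there, with 33450 CPM for scrambled and 63203 CPM for CF Im68 siRNA.

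**Figure D5:**
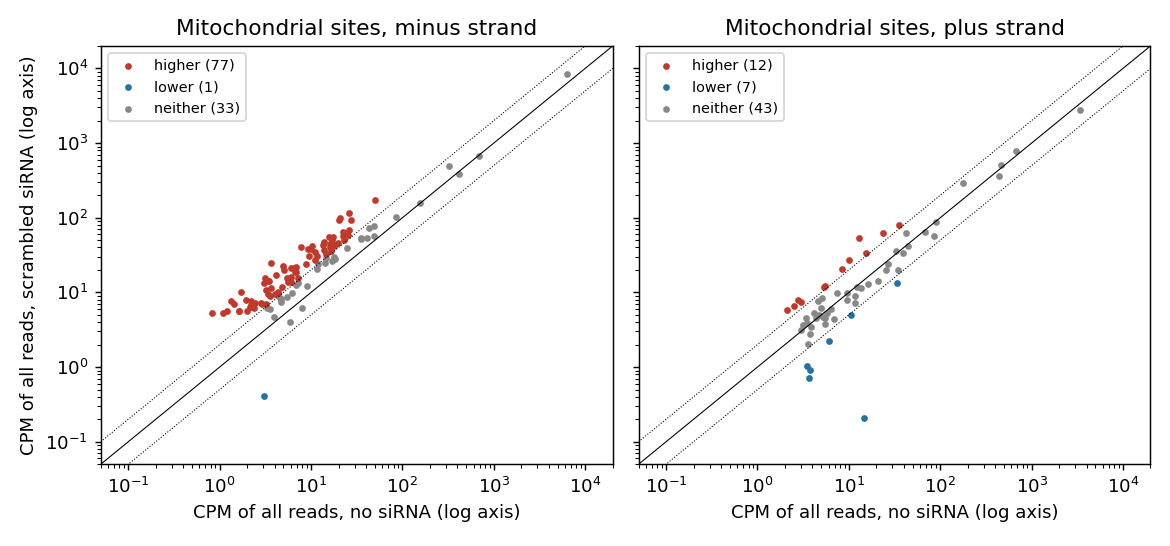
Reads in CPM of all reads at mitochondrial sites with scrambled siRNA against no siRNA (log axes), for the minus and the plus strand; the diagonal marks equal levels and the dotted lines a 2-fold difference. Of 111 minus strand sites 106 lie on the scrambled siRNA side, while the 62 plus strand sites scatter around the diagonal.

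The position of cleavage within a site was nearly the same in both libraries. Of 5791 sites with at least 200 reads in each, 95.2% had the same most used nucleotide and 96.8% had it within 2 nt. The share of a site's reads at its top nucleotide had a median of 67.0% with scrambled siRNA and 68.3% with no siRNA. The difference had a median of -0.507 points, with 90% of sites between -7.33 and 6.02 points.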

How the data were processed

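The authors deposited counts of reads by end position and strand, as whole numbers without scaling and with 1 file for each library. Positions are used as given, in the build hg19 (GRCh37) that the submitters' processing notes list. Which aligner and read filters were used, and whether duplicate or internally primed reads were removed, is not given in the sources used here.

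Libraries were grouped by their labels. With all 6 libraries weighted equally, sites were taken from the highest position downwards, each with all ends within 25 nt. Sites with a mean of at least 1 CPM were kept and joined into units as described above. Ratios have exact conditional 95% intervals, shares Newcombe or Wilson intervals, and shares of loci exact binomial ones. With 1 library a group no p-value was computed. Intervals cover counting error only, and copies made by PCR are not independent molecules. The smaller depth of the scrambled siRNA library limits low loci, so the no siRNA library was also thinned with a fixed seed.

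The members, rules, lists and named loci were chosen with earlier results of these data known. Named by rule are the 12 largest rises and 12 largest falls among called units with at least 100 reads in 1 library, the 10 largest changes of site use in each direction with at least 100 reads in each, and the 4 units with the most reads. Planned gene lists and cell type markers could not be applied, as an annotation of hg19 was not used here. Alternatives were other scalings (edgeR 4.0.16 TMM in R 4.3.3, and median of ratios), thinning, minimum reads, sizes, site rules and the scrambled siRNA library made by RNase I. Scripts ran in Python 3.11.15 with numpy 2.4.6, pandas 2.3.3, scipy 1.17.1, numba 0.67.0 and matplotlib 3.10.9, and the calls were tested on simulated counts.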

Additional observations from a re-analysis of the deposited data

How the results depend on the processing

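No paired analysis was possible because each group held 1 library, and for the same reason no replicate could be left out. Of 115 recomputed values over 20 settings, 77 stayed within the set tolerance, which for counts was 1.5 times. All 24 named units and all 20 named pairs kept their call under thinning, which was likely from the start, as they were picked for the largest changes. The named units also kept their call under TMM, median of ratios and all-read scaling, but this was fixed in advance. These scalings moved log2 ratios by at most 0.11, and the named units were at least 4.25-fold apart. The median log2 ratio of 0.04 became -0.065 under TMM and -0.065 under median of ratios scaling, and the percentage of called units that were higher, 50.03, became 36.6 and 36.7. Thinning the no siRNA library gave 422 lower units, 64.6% higher among the called, and 13.3% higher in the class with over 90% of reads at 1 nucleotide. With no minimum of reads there were 2278 higher and 1208 lower units (65.3% higher), and 359 proximal and 193 distal pairs. A minimum of 200 reads gave 169 higher and 222 lower units, 34 proximal and 13 distal pairs, 37 higher mitochondrial minus strand sites and 5.24% higher in the concentrated class. At 1.5-fold 2205 units were higher and 1979 lower, and at 3-fold 182 and 147. At 10 points 832 pairs were proximal and 368 distal, and at 30 points 31 and 22. Sites from 3 CPM left 454 lower units, 89 proximal and 38 distal pairs. Leaving out each site with over 90% of its reads at 1 nucleotide, here counted over all 6 libraries, gave 419 higher units (39.5% of the called). With the scrambled siRNA library made by RNase I in place of the alkaline one, 3685 units were higher and 6241 lower (37.1% higher, median log2 ratio -0.39), with 1399 proximal and 1023 distal pairs and a median change of 2.92 points. Stricter minimums and sizes test or call fewer loci by construction, and the cause of the other moves was not tested. Depth limits loci under 100 reads most, where 31.5% of intervals left out 1.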

Other observations

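Totals differed slightly by chromosome. The median log2 ratio of scrambled over no siRNA ran from -0.04 on chromosome X (511 units) and -0.03 on chromosome 4 (613 units) to 0.10 on chromosome 17 (1122 units) and 0.13 on chromosome 22 (385 units). Higher units made up 6.49% of tested units on chromosome 22, 6.06% on chromosome 6 and 5.61% on chromosome 17, against 1.96% on chromosome 21 and 2.23% on chromosome 18. Lower units made up 5.87% on chromosome 4 and 2.94% on chromosome 21. TMM scaling lowers all of these medians by the same 0.11 and so leaves their order.

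Neighbouring units on a strand tended to carry calls of the same direction. Of 5054 units that followed another tested unit within 50 kb on the same strand, 4.23% were higher and 4.25% lower. Of the 244 that followed a higher unit, 18 (7.38%) were higher and 5 (2.05%) lower, and of the 173 that followed a lower unit, 7 (4.05%) were higher and 20 (11.6%) lower. Such neighbours can share a transcript, and the numbers are given as a description. On the opposite strand within 1000 nt, the 39 units next to a higher unit held 2 higher and 1 lower ones, and the 49 next to a lower unit held 1 higher and 4 lower ones, beside 2.31% higher and 2.90% lower of all 1688 such neighbours.

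The 4 pairs whose proximal share changed by at least 40 points were mostly shallow. On the minus strand of chromosome 14, at 30046153 and 30045705, the share was 83.3% of 54 reads with scrambled siRNA and 33.3% of 93 reads with no siRNA (50 points higher, 34.3 to 61.6). On the plus strand of chromosome 18, at 43843266 and 43846955, it was 71.7% of 60 reads with scrambled siRNA and 28.4% of 74 reads with no siRNA (43.3 points higher, 26.6 to 56.6). The only distal one, on the minus strand of chromosome 6 at 73984501 and 73980429, had 23.5% of 51 reads with scrambled siRNA and 68.2% of 107 reads with no siRNA (-44.7 points, -57.2 to -28.5). At this last locus the CF Im25, CF Im59, scrambled RNase I and CF Im68 libraries had 83.3%, 71.7%, 53.3% and 79.8%, on 54, 60, 30 and 84 reads. These pairs were chosen after their values were seen.

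At 1 called unit the scrambled siRNA library had no read. The site on the plus strand of chromosome 1 at 226808830 had 57 reads with no siRNA (3.45 CPM), and the interval of the ratio put it at least 7.85-fold lower with scrambled siRNA. The CF Im25 and CF Im59 libraries had 0.930 and 2.69 CPM there, and the RNase I libraries had none.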
